A study of Mus musculus with 17 samples.

Results

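The Myc family genes examined here are Myc, Mycn, Max, Mxd1, Mxd3, Mxd4 and Mga, 7 of the 20621 genes in the count table, taken by symbol. All 7 passed the filter on low counts, which 15365 genes passed. RNA was sequenced from mouse embryonic stem cells of the E14 line in 17 libraries. The cells were WT or RNAPII-mut ("mutant" below), a homozygous line with the genotype label slow/slow, whose RNA polymerase II elongates slowly according to the series title. All groups grew without feeder cells on gelatine in medium with 10% serum and 1000 U/mL LIF, a cytokine that keeps these cells undifferentiated. 2i, a pair of kinase inhibitors (1 uM PD0325901 against MEK and 3 uM CHIR99021 against GSK3), was added for 0, 1, 2 or 7 days, so the day 0 groups had serum and LIF without 2i. Each combination of genotype and day had 2 libraries, and the mutant at day 1 had 3. The sources used here do not say whether the libraries came from separate cultures or whether the mutant line was a single clone, so p-values measure only the spread between these libraries.

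MYC proteins are transcription factors of the basic helix-loop-helix leucine zipper class. They bind DNA, most tightly at the E-box CACGTG, as dimers with MAX, and mainly raise transcription of genes for ribosome assembly, nucleotide and polyamine synthesis and cell division. The MXD proteins also pair with MAX, but recruit histone deacetylases and repress. MGA pairs with MAX within a polycomb complex, PRC1.6, which keeps germline genes silent in embryonic stem cells. In these cells Myc transcription is known to respond to LIF and to ERK signalling, and GSK3 marks MYC protein for degradation. The counts measure RNA only, so they do not give the amount of any of these proteins.

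Mycn and Mxd4 are shown by sequence because theirs were the only windows, among the 6 members with a RefSeq promoter entry (Mycn, Max, Mxd1, Mxd3, Mxd4 and Mga), that held any motif searched in the 250 bases before the annotated start. The letters found in the Mycn window were chosen after it had been read, so that match was fixed by the choice. The stretches below run 5′ to 3′ on the gene's strand in GRCm38.p6, the assembly also called mm10, and stop where the GENCODE gene begins. Mycn lies on chromosome 12 (chr12:12941915-12942086, minus strand) and capitals mark TTTGGCGC, letters of an E2F site. Mxd4 lies on chromosome 5 (chr5:34187721-34187960, minus strand) and capitals mark the E-box CACGTG.
Mycn: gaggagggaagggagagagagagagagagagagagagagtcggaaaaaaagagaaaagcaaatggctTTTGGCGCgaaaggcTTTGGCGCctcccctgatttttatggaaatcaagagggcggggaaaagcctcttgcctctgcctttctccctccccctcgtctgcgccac
Mxd4: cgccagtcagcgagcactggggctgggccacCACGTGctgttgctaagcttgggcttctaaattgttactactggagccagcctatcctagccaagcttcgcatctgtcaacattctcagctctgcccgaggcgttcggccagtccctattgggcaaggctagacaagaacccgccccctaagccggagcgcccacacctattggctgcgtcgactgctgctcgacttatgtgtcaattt

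The Mycn matches began 183 and 168 bases before the RefSeq start, and the Mxd4 match 219 bases before it. Over both strands, CACGTG stood in 6.93% of 15782 promoter windows of the same length, and TTTGGCGC, whose letters were chosen after the Mycn window had been read, in 0.589%. None of the 6 member windows held TTTCCCGC (another E2F form, in 1.25% of windows), CTTTGAT (TCF, in 2.81%), TTCNNNGAA (STAT, in 6.84%) or CCGGAAGT (ETS, in 4.02%). No match overlapped another. A match of letters describes the sequence and does not show that a factor binds there.

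The genes lie apart from each other in the genome. In GRCm38, Myc spans 61985391 to 61990374 on chromosome 15 (plus strand), Mga spans 119897228 to 119969581 on chromosome 2 (plus strand), and Max spans 76937269 to 76962201 on chromosome 12 (minus strand). Mycn spans 12936093 to 12941914 on chromosome 12, Mxd1 spans 86647042 to 86669161 on chromosome 6, Mxd3 spans 55325168 to 55329823 on chromosome 13 and Mxd4 spans 34173883 to 34187720 on chromosome 5, all on the minus strand. The gene span of Mxd3 shares 105 bases with that of Prelid1 on the opposite strand. Prelid1 had a median of 396.5 counts scaled to library size (CPM), far above Mxd3. The span of Mxd4 shares 1001 bases with that of an annotated antisense gene, Gm42846. Whether the shared bases lie in exons was not computed. The strand setting of the counting is not given in the sources used here, so part of the Mxd3 and Mxd4 counts could belong to these partners. On their own strand, the span of Mxd1 shares 2364 bases with Gm44292 and that of Max 1319 bases with Gm47218. A strand setting would not separate these, and neither partner was in the count table. The Myc retrogene Mycs had 0 to 4 counts per library.

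Library totals were 47350441 to 56138844 counts. The pluripotency markers (Pou5f1, Sox2, Nanog, Zfp42, Esrrb, Klf4, Tfcp2l1 and Dppa5a) were all detected and summed to 4562 to 10280 CPM in every library, and the mutation could not be checked from gene counts. Replicate 1 of WT at days 0 and 1 stood apart. The 12 mesoderm and stromal markers summed to 694.5 and 1081 CPM there, to 169.8 in replicate 1 of WT day 2, and to 13.8 to 60.1 in the other 14 libraries. The 10 trophoblast markers, several of them keratins that other cells also use, summed to 661.3 and 1377 CPM in the same pair, 409.7 in replicate 1 of WT day 2, and 74.2 to 237.3 elsewhere. Primitive endoderm markers summed to 955.4 to 1132 CPM in replicate 2 of WT at every day, 404.5 to 565.4 in replicate 1 and 213.6 to 419.7 in the mutant. Results of the members that rest on the pair from WT days 0 and 1 are therefore given with and without it. Single genes of the lists below are given only with it. Without the pair, replicate 2 alone stands for WT at days 0 and 1, the replicate with the higher primitive endoderm markers. Replicate 1 of WT day 2 stays in. Values without the pair thus also compare libraries of unlike composition. In bulk RNA, fewer cells that express a gene and less RNA per cell cannot be told apart.

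Myc was the member whose RNA varied most over the 17 libraries, from 5.49 to 155.5 CPM, a 28.4-fold range. At day 0 it stood at 75.5 and 155.5 CPM in WT replicates 1 and 2, and at 118.5 and 87.7 CPM in the mutant. At day 1 it stood at 18.03 and 55.9 CPM in WT, and at 17, 37.02 and 46.5 CPM in the mutant. At day 2 the values were 18.5 and 5.49 CPM in WT and 20.1 and 14.1 CPM in the mutant. At day 7 they were 10.7 and 11.4 CPM in WT and 14.7 and 17.3 CPM in the mutant. Every library in 2i was therefore below every day 0 library, while the values at days 1 and 2 overlapped, as did those at days 2 and 7. How many of all genes separate in such a way was not counted, here or for the other members. Ordered by mean, the groups ran WT day 0 (115.5 ± 56.6, SD, n = 2), mutant day 0 (103.1 ± 21.8, n = 2), WT day 1 (37.0 ± 26.8, n = 2), mutant day 1 (33.5 ± 15.1, n = 3), mutant day 2 (17.1 ± 4.24, n = 2), mutant day 7 (16.0 ± 1.81, n = 2), WT day 2 (11.99 ± 9.20, n = 2) and WT day 7 (11.1 ± 0.522, n = 2). The ranges of neighbours in that order overlapped except between mutant day 0 and WT day 1.

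**Figure D1:**
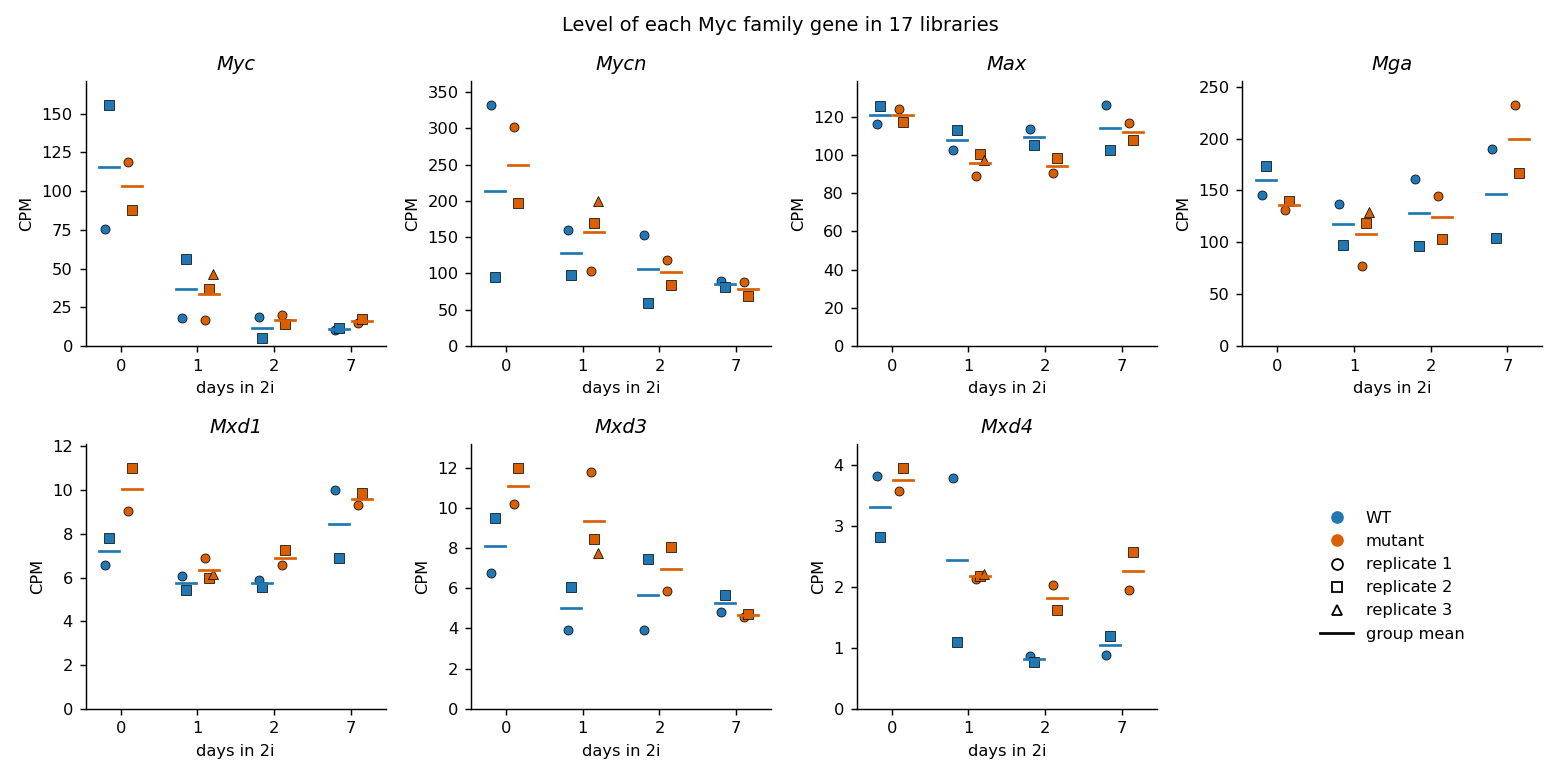
CPM (linear axes from 0) of each of the 7 genes in the 17 libraries, against the days in 2i. Each point is a library, coloured by genotype and shaped by replicate number, and each line a group mean. Myc stood at 75.5 to 155.5 CPM at day 0 and at 10.7 to 17.3 CPM at day 7, Max lay between 89.1 and 126 CPM, and the Mycn value of WT day 0 replicate 1 (331.9 CPM) was the highest of that gene.

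Averaged over the genotypes, Myc was 3.10-fold lower at day 1 than at day 0 (log2 fold change -1.63 ± 0.42, SE; edgeR quasi-likelihood test, Benjamini-Hochberg adjusted p = 0.0401). Leaving out the pair of WT libraries with stromal transcripts gave -1.55 with an adjusted p of 0.0644. At day 2 it was 7.63-fold lower than at day 0 (-2.93 ± 0.46, adjusted p = 0.00163), and at day 7 8.20-fold lower (-3.04 ± 0.46, adjusted p = 0.000447). Without that pair these values were -3.15 (adjusted p = 0.000743) and -3.25 (adjusted p = 0.000221).

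Myc was the only member called at day 1, 1 of 7 genes, where 2.46% of all tested genes were called lower and 4.86% in either direction. At day 2, 2 of 7 were called, both lower (Myc and Mxd4), against 5.13% of all genes lower and 10.7% in either direction. At day 7, 4 of 7 were called, all lower (Myc, Mycn, Mxd3 and Mxd4), against 13.7% of all genes lower and 27.3% in either direction. "Called" means an adjusted p under 0.05 over all tested genes. The count at day 7 lay between 2 and 4 when each library was left out in turn.

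Within WT alone, Myc was 3.13-fold lower at day 1 but was not called (log2 -1.64, adjusted p = 0.438). It was called lower at day 2 (log2 -3.27 ± 0.66, adjusted p = 0.0264) and day 7 (-3.39 ± 0.67, adjusted p = 0.007). Within the mutant, the values were -1.62 at day 1 (adjusted p = 0.192), -2.59 ± 0.64 at day 2 (adjusted p = 0.0489) and -2.69 ± 0.65 at day 7 (adjusted p = 0.0152). Members called in WT, all lower, numbered 0, 1 and 2 of 7 at days 1, 2 and 7, where 0.0716%, 0.996% and 6.1% of all genes were called lower and 0.202%, 2.16% and 12.7% in either direction. In the mutant they numbered 0, 1 and 2 as well, where 0.716%, 1.21% and 6.96% of all genes were called lower and 1.41%, 2.92% and 14.2% in either direction. For the counts of 0 at day 1, 1 member in WT and 3 in the mutant had an unadjusted p under 0.05, and DESeq2 called 0 and 1. An edgeR fit of the WT day 0 and day 2 groups alone did not call Myc (-3.275, adjusted p = 0.382). The WT day 2 call of Myc was lost without WT day 0 replicate 2 (adjusted p = 0.102) or WT day 2 replicate 2 (0.185). The WT day 7 call was lost without WT day 7 replicate 1 (0.0574). In the mutant the day 7 call was lost without day 0 replicate 1 (0.0943), day 7 replicate 1 (0.124) or day 7 replicate 2 (0.0933), and the day 2 call without any of 10 libraries (0.0595 to 0.324).

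Mycn, the neural paralogue that binds the same E-boxes and is the more abundant of the pair per length in most libraries, had a shallower and less certain course. At day 0 it stood at 331.9 and 95.6 CPM in WT replicates 1 and 2, and at 301.6 and 197.3 CPM in the mutant. At day 1 the values were 159.6 and 98.1 CPM in WT and 103.8, 170.1 and 199.4 CPM in the mutant. At day 2 they were 153.6 and 58.8 CPM in WT and 119.0 and 84.6 CPM in the mutant. At day 7 they were 90.2 and 80.8 CPM in WT and 87.8 and 69.7 CPM in the mutant. All 4 libraries of day 7 were below all 4 of day 0, but the gap between 90.2 and 95.6 CPM was small, and replicate 2 of WT varied only between 58.8 and 98.1 CPM over all days. Ordered by mean, mutant day 0 (249.5 ± 73.7, n = 2) and WT day 0 (213.8 ± 167.1, n = 2) came first and mutant day 7 last (78.7 ± 12.8, n = 2), and each neighbouring pair of the 8 groups overlapped.

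The average log2 fold change of Mycn from day 0 was -0.70 at day 1 (adjusted p = 0.313), -1.15 at day 2 (adjusted p = 0.0746) and -1.49 ± 0.39 at day 7 (2.81-fold lower, adjusted p = 0.012). The day 7 value dropped to -0.91 (adjusted p = 0.0582) without the pair of WT libraries with stromal transcripts, 1 of which, WT day 0 replicate 1, held the highest Mycn value. The call was also lost without WT day 0 replicate 1 alone (-0.91, adjusted p = 0.07), mutant day 0 replicate 1 (-1.31, 0.0576) or mutant day 7 replicate 2 (-1.41, 0.0535). Within a single genotype Mycn was not called at day 7 (WT -1.32, adjusted p = 0.125; mutant -1.66, adjusted p = 0.0611). In the mutant 10 of 29 alternative settings called it, among them DESeq2 (-1.68, adjusted p = 0.0148), the fit without the stromal pair (-1.66, adjusted p = 0.0181) and the fit with the WT replicate number as a term (-1.66, adjusted p = 0.00501). In WT the day 7 difference was -0.16 without that pair, where replicate 2 alone stood for day 0, so the WT value rested on replicate 1 of day 0. The part of the stromal or trophoblast transcripts in the Mycn level of that library was not tested.

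**Figure D2:**
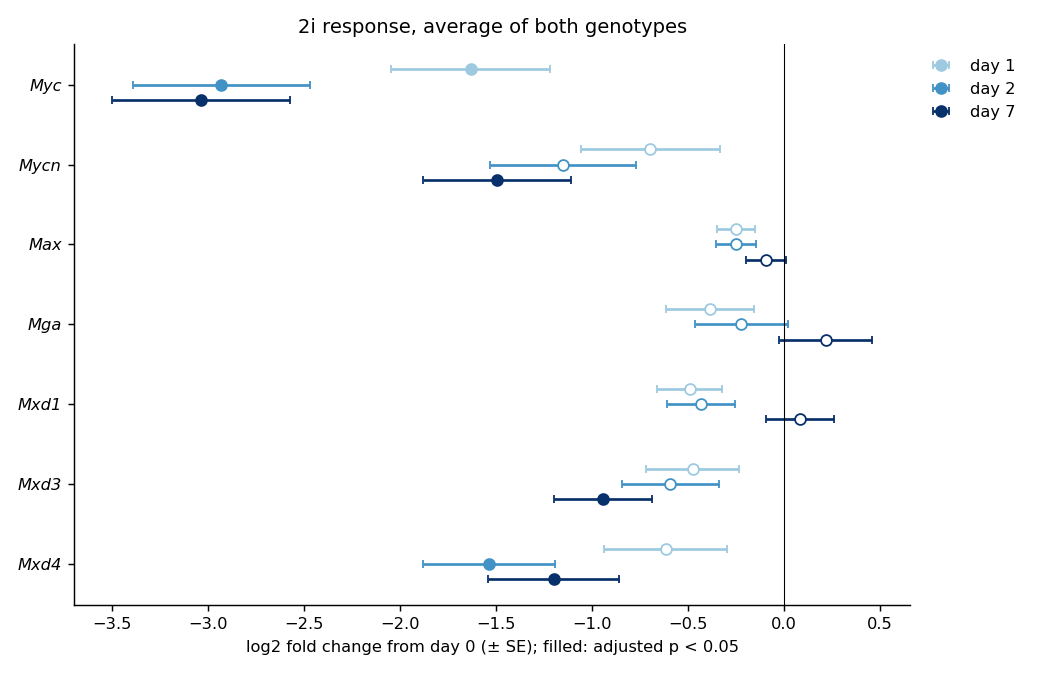
Log2 fold change from day 0 of the 7 genes at days 1, 2 and 7, averaged over both genotypes. Bars are standard errors derived from the edgeR test statistic, and filled points have an adjusted p under 0.05. The Myc values ran from -1.63 at day 1 to -3.04 at day 7, all filled, and those of Max lay between -0.25 and -0.09, all open.

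Divided by exon length, so that genes can be compared, Myc and Mycn shared their summed RNA differently between libraries. At day 0 Myc made up 21.6% and 66.4% of the Myc plus Mycn level per kilobase in WT replicates 1 and 2, and 32.3% and 35.01% in the mutant. At day 7 it made up 12.6% and 14.6% in WT and 16.9% and 23.1% in the mutant. The day 7 shares in the mutant were below both of its day 0 shares, and those in WT below both of theirs. No test was run on these shares. The summed level of Myc plus Mycn was 86.3 to 135.2 CPM per kilobase in the 4 day 0 libraries and 27.5 to 32.1 in the 4 of day 7, which do not overlap.

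Max, the shared partner of every other member, had the smallest spread of the family. Its level lay between 89.1 CPM (mutant day 1 replicate 1) and 126 CPM (WT day 7 replicate 1) over all 17 libraries, a 1.41-fold range. The SD of its log2 CPM over libraries was 0.156, lower than that of all but 2.81% of tested genes. At day 0 Max stood at 116 and 125.6 CPM in WT and 123.8 and 117.4 CPM in the mutant, and at day 7 at 126 and 102.3 CPM in WT and 116.7 and 107.6 CPM in the mutant. The groups of days 0 and 7 overlapped, and the average difference was -0.09 on the log2 scale (95% interval -0.32 to 0.14, adjusted p = 0.558). All 9 libraries of days 1 and 2 (89.1 to 113.4 CPM) were below all 4 of day 0, with average differences of -0.25 at each of the 2 days (adjusted p = 0.193 and 0.159), which did not pass. Max was called in none of the 19 comparisons.

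The Myc plus Mycn level per kilobase of merged exons was therefore 2.47 to 3.99 times that of Max in the day 0 libraries and 0.895 to 1.01 times in those of day 7. These ratios depend on the length, which for Max was 3598 bases of merged exons but 1942 for its longest transcript. By the longest transcript, Myc stood at 4.57 to 7.40, Mycn at 26.1 to 33.8 and Max at 52.7 to 64.9 CPM per kilobase at day 7. Max then stood above Myc and Mycn together. In the order of levels per kilobase, all 4 day 7 libraries read Max, Mycn, Mga, Myc, Mxd3, Mxd1, Mxd4 from high to low. At day 0 the leading gene was Mycn in 3 libraries and Myc in WT replicate 2, and the Mxd genes came last in all 4. The day 7 order and the leading gene at day 0 were the same with the longest transcript as the length.

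**Figure D3:**
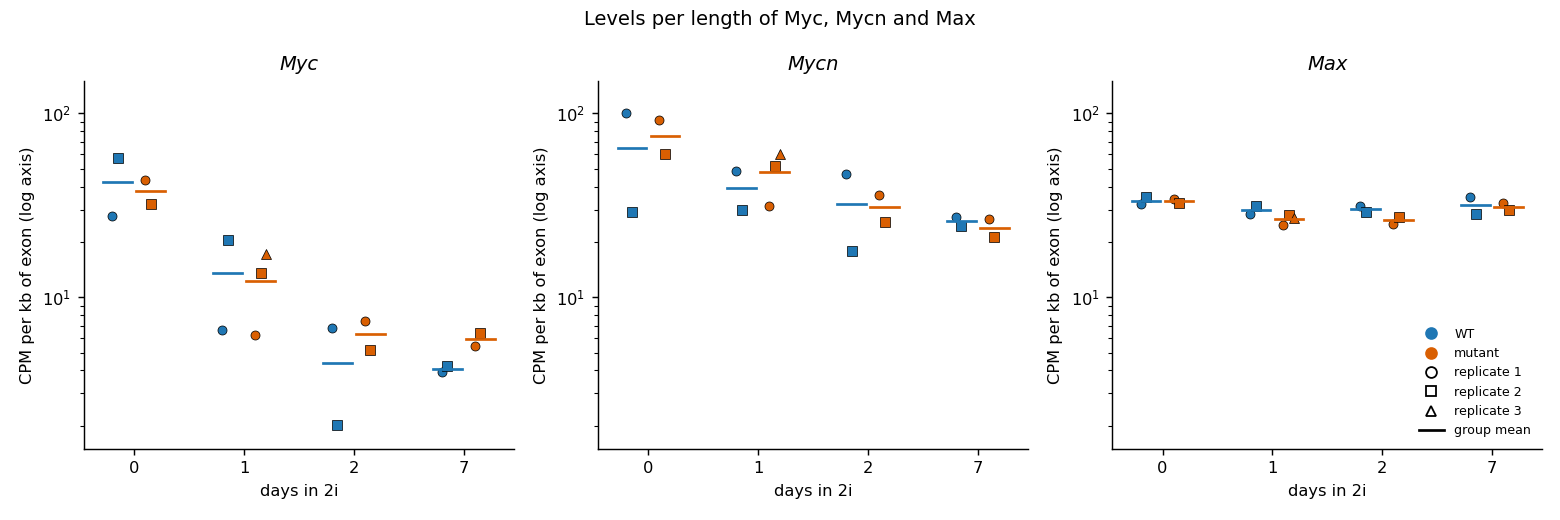
Level per kilobase of merged exons (CPM per kilobase, logarithmic axes) of Myc, Mycn and Max in the 17 libraries, against the days in 2i, with genotype by colour, replicate number by shape and lines at the group means. Max lay between 24.8 and 35.01 throughout, while Myc lay between 27.8 and 57.2 at day 0 and between 3.93 and 6.37 at day 7.

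The MXD repressors were low in every library, and their sum per kilobase was 2.59 to 7.09 CPM against 24.8 to 35.01 for Max. Mxd1, a repressor usually linked to differentiation, lay between 5.46 and 11.02 CPM. It stood at 6.57 and 7.83 CPM in WT day 0 and 9.05 and 11.02 CPM in mutant day 0, and at 9.99 and 6.91 CPM in WT day 7 and 9.31 and 9.87 CPM in mutant day 7. These groups overlapped, and the average difference at day 7 was 0.08 on the log2 scale (95% interval -0.30 to 0.46, adjusted p = 0.771). At days 1 and 2 the average differences were -0.49 (adjusted p = 0.123) and -0.43 (adjusted p = 0.143), which DESeq2 called (adjusted p = 0.0164 and 0.0321).

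Mxd3, the member of this subfamily that dividing cells express, stood at 6.77 and 9.47 CPM in WT day 0 and 10.2 and 11.99 CPM in mutant day 0. At day 7 it stood at 4.81 and 5.68 CPM in WT and 4.58 and 4.72 CPM in the mutant. The 4 libraries of day 7 were all below the 4 of day 0. The average log2 fold change was -0.94 ± 0.26 (1.92-fold lower, adjusted p = 0.0155) and -1.05 (adjusted p = 0.0117) without the stromal pair. The call was lost, with adjusted p of 0.0501 to 0.0545, without WT day 7 replicate 1 or either mutant day 7 library. In the mutant alone it was called (-1.25 ± 0.36, adjusted p = 0.0368), but not without any 1 of 5 libraries (mutant day 1 replicate 2 and each library of mutant days 0 and 7, adjusted p = 0.0527 to 0.18). In WT alone it was not called (-0.63, adjusted p = 0.262). The test of that difference between the genotypes did not pass (-0.62, 95% interval -1.72 to 0.47, adjusted p = 0.694).

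Mxd4 had the fewest counts of the family, 41 to 228 per library. It stood at 3.82 and 2.83 CPM in WT day 0 and 3.57 and 3.96 CPM in mutant day 0. At day 1 the values were 3.79 and 1.10 CPM in WT and 2.13, 2.19 and 2.21 CPM in the mutant, and at day 2 they were 0.861 and 0.765 CPM in WT and 2.03 and 1.62 CPM in the mutant. At day 7 they were 0.888 and 1.20 CPM in WT and 1.96 and 2.58 CPM in the mutant. Every library of days 2 and 7 was below every day 0 library, and at day 1 the library that remained at the day 0 level was WT replicate 1, which carried stromal transcripts. The average log2 fold change was -1.54 ± 0.34 at day 2 (2.90-fold lower, adjusted p = 0.0126) and -1.20 ± 0.34 at day 7 (2.30-fold lower, adjusted p = 0.0193), and -1.42 (adjusted p = 0.00437) and -1.083 (adjusted p = 0.00877) without the stromal pair. The day 2 call was lost without replicate 2 of WT or of mutant day 2 (adjusted p = 0.0511 and 0.0646), and the day 7 call without any of 5 libraries of days 0 and 7 (0.0505 to 0.0772). At day 1 the average of -0.62 (adjusted p = 0.312) became -1.19 (adjusted p = 0.0228) without WT day 1 replicate 1. In WT alone the day 7 difference was called (-1.67 ± 0.49, adjusted p = 0.0415), but not without any of 13 libraries (0.0536 to 0.175).

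Mga, the MAX partner of PRC1.6 and by far the longest transcript of the family, was called in none of the 19 comparisons. It stood at 146.1 and 173.5 CPM in WT day 0 and 131.4 and 139.9 CPM in mutant day 0, and at 190.2 and 104.0 CPM in WT day 7 and 232.3 and 166.6 CPM in mutant day 7. In WT the day 7 libraries lay on both sides of those of day 0, and in the mutant both lay above. The mutant log2 difference at day 7 was 0.56 (95% interval -0.18 to 1.30, adjusted p = 0.315), and a fit of the 2 mutant groups alone called it (0.58, adjusted p = 0.0158). Over all libraries Mga lay between 77.6 CPM (mutant day 1 replicate 1) and 232.3 CPM.

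Between consecutive days, averaged over the genotypes, 0 of 7 members were called from day 1 to day 2 and 0 from day 2 to day 7, where edgeR called 0.0651% and 1.2% of all genes. At an unadjusted p under 0.05 there were 2 members in the first step and 1 in the second, and DESeq2 called 0 and 1 (Mxd1, log2 0.50, adjusted p = 0.0296). From day 1 to day 2 the Myc difference was -1.30 (95% interval -2.21 to -0.38, adjusted p = 0.308), and from day 2 to day 7 it was -0.10 (-1.04 to 0.83, adjusted p = 0.958).

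Whether the slow polymerase changed the family was asked at each day. In the edgeR fit, 0 of 7 members differed between mutant and WT at days 0, 1, 2 and 7, where 0.28%, 0.417%, 0.0716% and 0.0976% of all genes were called. At an unadjusted p under 0.05 there were 0, 1, 1 and 1 members, and DESeq2 called 0 at each day. Over the average of the 4 days 0 of 7 members passed, against 12.8% of all genes, with 2 members at an unadjusted p under 0.05 and 0 called by DESeq2.

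The intervals of these differences were wide for Myc and Mycn and narrow for Max. For Myc the mutant minus WT difference was -0.16 at day 0 (95% interval -1.47 to 1.14), -0.14 at day 1 (-1.33 to 1.05), 0.51 at day 2 (-0.81 to 1.83) and 0.53 at day 7 (-0.79 to 1.86), on the log2 scale. At day 7 the 2 mutant libraries (14.7 and 17.3 CPM) were above the 2 of WT (10.7 and 11.4 CPM), a separation that was not counted over all genes. For Mycn the average over days was 0.08 (-0.48 to 0.65), and without the stromal pair 0.47 (adjusted p = 0.203). For Max the average was -0.10 (-0.26 to 0.06), and for Mga 0.01 (-0.35 to 0.37). The data leave room for a change of over 2-fold in Myc at any single day.

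Averaged over days, the larger genotype differences were those of the 3 MXD repressors, all toward higher levels in the mutant, and none passed. The direction did not hold at every day. Mxd3 was lower in the mutant at day 7 (-0.17, adjusted p = 0.882), with both mutant libraries below those of WT. Mxd4 was lower in the mutant at day 1 (-0.17, adjusted p = 0.906). Mxd4 differed by 1.16 at day 2 (95% interval 0.11 to 2.22, adjusted p = 0.78) and by 1.12 at day 7 (0.07 to 2.17, adjusted p = 0.498). At both days the mutant libraries were above those of WT, but the share of all genes with such a separation was not counted. Its average over days was 0.57 (0.07 to 1.08, adjusted p = 0.13), and it passed without the stromal pair (0.92, adjusted p = 0.00967) or without WT day 1 replicate 1 alone (0.86, adjusted p = 0.012). Mxd3 differed by 0.90 at day 1 (0.18 to 1.63, adjusted p = 0.238), where the 3 mutant libraries (7.77 to 11.8 CPM) were above the 2 of WT (3.92 and 6.06 CPM). Its average was 0.37 (-0.01 to 0.75, adjusted p = 0.195), and when the fit also held the WT replicate number as a term it passed at day 1 (1.22, adjusted p = 0.0149) and on average (0.68, adjusted p = 0.0116). Without the stromal pair these values were 0.62 (adjusted p = 0.578) and 0.24 (adjusted p = 0.429). With that term the WT side of the comparison was the fitted level of replicate 1, not the mean of both replicates. Mxd3 was lower in WT replicate 1 than in WT replicate 2 at every day. The primitive endoderm markers, which differ between those WT series, move with that term, and their part in the Mxd3 difference was not tested. Mxd1 averaged 0.27 (0.003 to 0.53, adjusted p = 0.175).

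**Figure D4:**
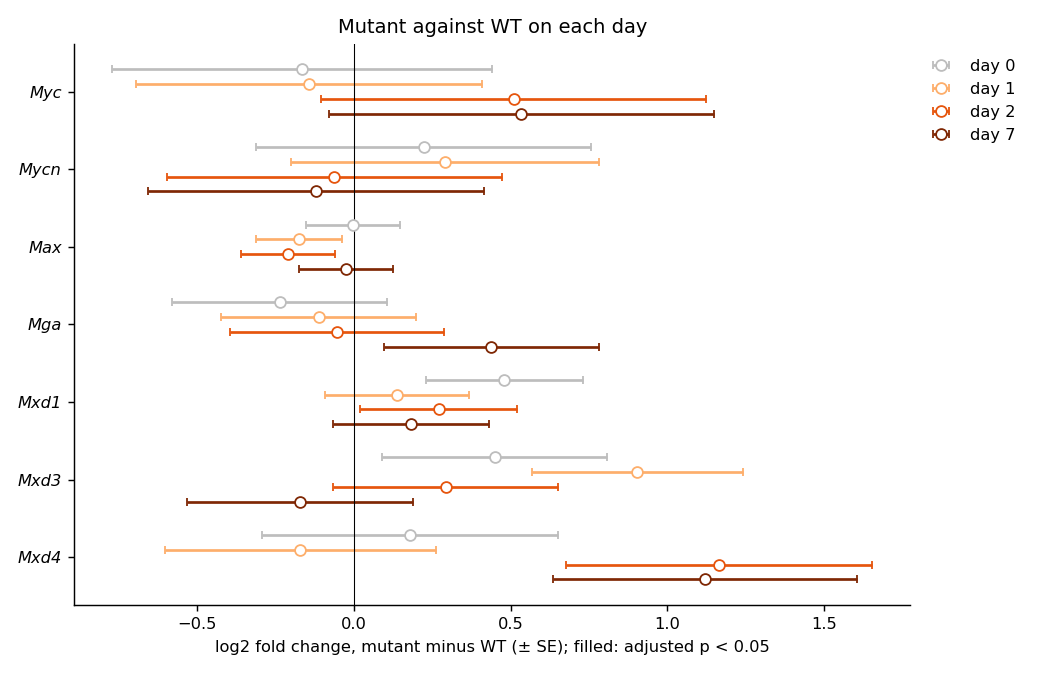
Mutant minus WT difference (log2) of the 7 genes at each of the 4 days. Bars are standard errors derived from the edgeR test statistic, and points would be filled at an adjusted p under 0.05, which none reached. Mxd4 at days 2 and 7 (1.16 and 1.12) and Mxd3 at day 1 (0.90) lay farthest from 0.

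The response to 2i was also compared between the genotypes. In the edgeR fit 0 of 7 members had a different response at days 1, 2 and 7, where 0% of all genes were called at each. The number of members at an unadjusted p under 0.05 was 0 at each day, against 118, 366 and 1178 of all genes, and DESeq2 called 0 members. The difference in the Myc response was 0.02 at day 1 (95% interval -1.75 to 1.80), 0.67 at day 2 (-1.19 to 2.53) and 0.70 at day 7 (-1.16 to 2.56).

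Among the other proteins that share the E-box or the MAX and MLX partners, a list of 10 genes all of which were tested, 4 were called at day 7 on average, 3 higher and 1 lower, where 13.7% of all genes were called in each direction and 27.3% in either. Mycl, the third MYC paralogue, rose as Myc and Mycn fell, from 19.3 ± 13.7 CPM in WT and 11.3 ± 0.649 CPM in the mutant at day 0 to 49.0 ± 11.4 CPM and 32.5 ± 4.30 CPM at day 7 (log2 1.44 ± 0.27, adjusted p = 0.00166). Tcfl5, a helix-loop-helix factor best known from the testis, fell from 61.8 ± 20.5 CPM and 57.8 ± 7.32 CPM to 12.4 ± 0.482 CPM and 7.71 ± 1.18 CPM (-2.61 ± 0.18, adjusted p = 3.24e-06). Mxi1, the remaining MXD relative, rose by 0.64 ± 0.18 (adjusted p = 0.0161), and Usf2, which binds E-boxes without MAX, rose by 0.53 ± 0.16 (adjusted p = 0.0278). Mnt, a MAX-bound repressor found in most cells, Mlx, Mlxip, Mlxipl, Tfap4 and Usf1 were not called. The median of the 10 was 0.03, against 0.01 over all genes. Mycl was also the 1 member of this list that differed between the genotypes on average, lower in the mutant (log2 -0.67, adjusted p = 0.0304), where 7.49% of all genes were called lower and 12.8% in either direction.

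Genes that MYC is known to activate were called lower more often than higher at day 7, all but Ccnd2 by less than Myc itself. Of 67 such genes, all tested, 21 were called lower and 1 higher at day 7 on average, and 58 had a negative difference. Of all tested genes 13.7% were called in each direction. The median log2 fold change of the 67 was -0.28, against 0.01 over all genes. Nolc1, a nucleolar chaperone, fell from 608.2 ± 17.98 CPM in WT and 729.6 ± 77.8 CPM in the mutant at day 0 to 381.2 ± 13.6 CPM and 336.8 ± 2.28 CPM at day 7 (-0.89 ± 0.10, adjusted p = 6.26e-05). Odc1, the first enzyme of polyamine synthesis, fell by 1.19 ± 0.21 on the log2 scale (adjusted p = 0.00113), and Ccnd2, a D-type cyclin, by 3.62 ± 0.60 (adjusted p = 0.00077). The gene called higher was Bcat1, which transfers amino groups of branched-chain amino acids, from 389.2 ± 22.5 CPM and 256.1 ± 11.4 CPM to 1087 ± 165 CPM and 988.6 ± 70.3 CPM (1.72 ± 0.17, adjusted p = 2.64e-05). Leaving out the stromal pair lowered the count of 21 to 14. Leaving out single libraries lowered it to 12 (WT day 0 replicate 1), 9 (replicate 1 of mutant day 0) or 13 (replicate 1 of mutant day 7).

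At day 1, when Myc was already 3.10-fold lower, the median of these 67 genes was 0.04 and 1 was called in each direction (Tert lower, Bcat1 higher), where 2.46% of all genes were called lower and 2.4% higher. At day 2 the median was -0.13, with 3 lower (Nolc1, Odc1 and Ccnd2) and 1 higher (Bcat1), where 5.13% of all genes were called lower and 5.56% higher. Within WT 6 were called lower and 1 higher at day 7, and within the mutant 10 and 1, where 6.1% and 6.96% of all genes were called lower. The WT count was 2 without the stromal pair. Between the genotypes 2 were called higher and 2 lower in the mutant on average: Cdk4 and Mcm5 higher, Hk2 and Bcat1 lower. Of all genes 5.35% were called higher and 7.49% lower there.

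**Figure D5:**
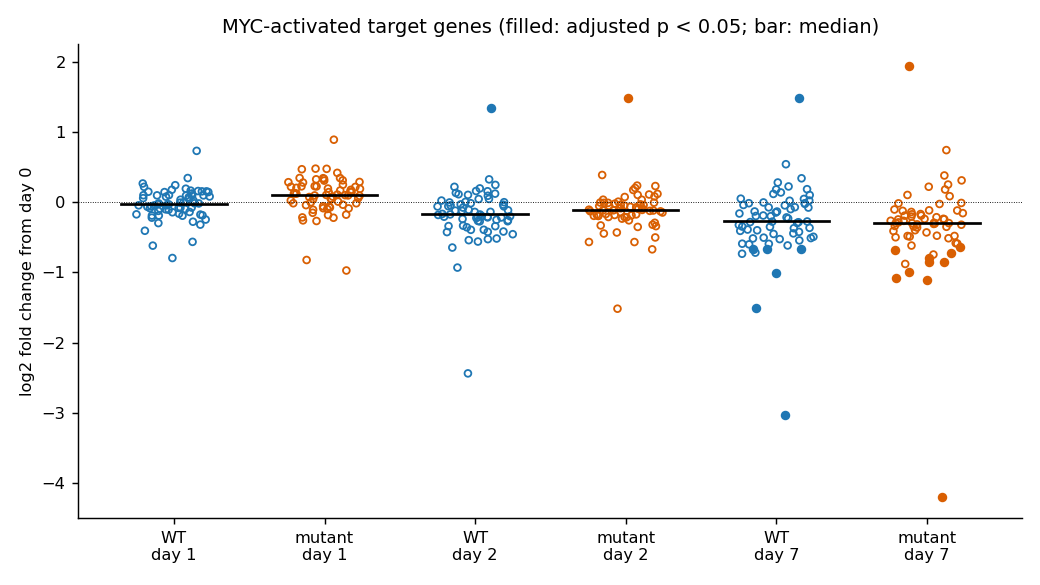
Log2 fold change from day 0 of the 67 MYC-activated target genes at days 1, 2 and 7, in WT and in the mutant separately. Each point is a gene, filled at an adjusted p under 0.05, and bars are medians over the genes. The median was -0.03 in WT and 0.10 in the mutant at day 1, and -0.27 and -0.30 at day 7.

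Of 7 genes that MYC is known to repress with its partner ZBTB17, 1 was called higher and 2 lower at day 7, where 13.7% of all genes were called in each direction. Cdkn1a, the cell cycle inhibitor p21, rose from 84.2 ± 45.2 CPM and 59.4 ± 11.4 CPM at day 0 (WT and mutant) to 368.4 ± 106.3 CPM and 368.9 ± 22.6 CPM at day 7 (log2 2.38 ± 0.27, adjusted p = 6.61e-05). Cdkn1c, an inhibitor of the same family that is imprinted, fell from 56.9 ± 1.29 CPM and 71.9 ± 13.1 CPM to 3.69 ± 1.61 CPM and 6.04 ± 0.862 CPM (-3.76 ± 0.23, adjusted p = 1.11e-06). Gadd45a, a stress-response gene, fell by 2.48 ± 0.22 (adjusted p = 1.34e-05). The list thus did not move in a single direction, with a median of 0.09.

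Of 24 genes for MYC cofactors and turnover, 23 were tested, and 4 were called lower and 2 higher at day 7, with a median of -0.11. This is near the share over all genes, of which 27.3% were called, 13.7% in each direction. Ruvbl1, an ATPase of chromatin remodelling complexes that MYC recruits, fell by 0.72 ± 0.14 (adjusted p = 0.00211). Usp28, a deubiquitinase that stabilises MYC, fell by 0.84 ± 0.21 (adjusted p = 0.00973). Btrc, a ubiquitin ligase subunit that targets MYC, rose by 0.81 ± 0.18 (adjusted p = 0.00514). Wdr5, a chromatin scaffold that docks MYC and is also a subunit of PRC1.6, rose by 0.80 ± 0.17 (adjusted p = 0.00383).

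Of the 13 PRC1.6 genes listed with Mga, 2 were called lower and 1 higher at day 7, with a median of 0.04, where 27.3% of all genes were called. Cbx1, a heterochromatin protein, fell by 0.64 ± 0.18 (adjusted p = 0.0163), Tfdp1, the dimer partner of E2F6, fell by 0.82 ± 0.25 (adjusted p = 0.0287), and Wdr5 was the gene that rose. The 2 lower calls were both lost without WT day 7 replicate 2, mutant day 0 replicate 1 or mutant day 7 replicate 2.

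The 18 germline genes that MGA and MAX are known to silence were mostly lower at day 7. On average 11 were called lower and 1 higher, where 13.7% of all genes were called in each direction, and their median was -1.32 against 0.01 over all genes. Their median was -0.47 at day 1 and -0.37 at day 2, where 1 was called lower and 1 higher, against 5.13% and 5.56% of all genes. In the mutant 10 of the 18 had a negative difference at day 1 and 9 at day 2 (medians -0.16 and 0.07). In WT 16 had one at day 1 and 14 at day 2 (medians -0.79 and -0.70). Already at day 0, 16 of the 18 were lower in the mutant than in WT (median -1.105, against -0.05 over all genes). None of these 18 was called there, where 0.28% of all genes were. Ddx4, a germ cell RNA helicase, fell from 19.4 ± 0.495 CPM in WT and 10.5 ± 0.327 CPM in the mutant to 2.88 ± 0.895 CPM and 3.27 ± 0.609 CPM (log2 -2.22 ± 0.28, adjusted p = 0.000119). Tdrd1 and Tdrkh, Tudor proteins of the piRNA pathway, fell by 3.26 ± 0.47 (adjusted p = 0.000294) and 2.00 ± 0.30 (adjusted p = 0.000381). Dazl, a germ cell RNA-binding protein, rose instead, from 4.97 ± 2.44 CPM and 2.24 ± 0.124 CPM to 12.1 ± 1.07 CPM and 13.1 ± 0.492 CPM (1.92 ± 0.29, adjusted p = 0.000401). The count of 11 was 10 without the stromal pair, and leaving out single libraries lowered it to 6 (WT day 0 replicate 2, WT day 7 replicate 1 or mutant day 7 replicate 2) or 7 (mutant day 0 replicate 1). Mga and Max, the genes of the complex among the members, had day 7 averages of 0.22 (adjusted p = 0.547) and -0.09.

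The readouts of the inhibited kinases, target genes of ERK and of Wnt signalling, held called genes from day 1 on. Of 18 genes, 5 were called lower and 2 higher at day 1, where 2.46% and 2.4% of all genes were. At day 7, 5 were called lower and 4 higher, where 13.7% of all genes were called in each direction. Averaged over the genotypes, 12 of the 18 had a negative difference at day 7 and 6 a positive one. Their median was -0.74, against 0.01 over all genes. The ERK and Wnt targets were not counted separately, and the genes named here were chosen among the called ones. Spry4, an ERK-induced feedback inhibitor, fell from 204.2 ± 139.9 CPM and 256.0 ± 28.1 CPM at day 0 to 1.17 ± 0.0156 CPM and 1.19 ± 0.115 CPM at day 7 (log2 -7.59 ± 0.86, adjusted p = 6.41e-05). Dusp4, an ERK phosphatase, fell by 5.94 ± 0.72 (adjusted p = 9.58e-05). Cdx1, a target of beta-catenin, which CHIR99021 stabilises, rose by 4.37 ± 0.41 (adjusted p = 1.73e-05).

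Genes whose level followed each member most closely over the 17 libraries are given as a description, since the libraries share days, genotypes and depth. For Myc they were Pwp2, a subunit of the early ribosome assembly complex (Pearson r = 0.958 of log2 CPM), and Pnp, purine nucleoside phosphorylase (0.934). For Mycn they were Adk (0.940) and Acsl5 (0.898), for Max Spry2 (0.881) and Pik3c3 (0.873), and for Mga Arid4a (0.964) and Xiap (0.959). For Mxd1 they were Atg9a (0.916) and Abcg1 (0.904), for Mxd3 Il11ra1 (0.947) and Abhd14a (0.929), and for Mxd4 Arnt2 (0.950) and Sdc1 (0.911). These ranks depended on the measure. By group means Pwp2 and Pnp stayed at ranks 1 and 2 for Myc, while Adk and Acsl5 stood at ranks 41 and 102 for Mycn. By Spearman correlation Adk stayed at rank 1 for Mycn, while Acsl5 stood at rank 59, and Pnp at rank 26 for Myc. No member was among the 2 closest genes of another by Pearson r. The closest pairs within the family were Myc with Mycn (0.67) and Myc with Mxd4 (0.65), and the most opposed was Mxd3 with Mga (-0.48).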

How the data were processed

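RNA-seq of 17 libraries was analysed from 1 table of raw counts per gene, as the authors deposited it. Per the submitters' processing notes, STAR, deepTools and mm10 were used. Versions, the counting tool, its strand setting and its treatment of multi-mapping reads are not given in the sources used here. All sample columns were used, and groups came from the sample titles. Counts were fitted with edgeR 4.0.16 in R 4.3.3 (TMM, filterByExpr on the 8 groups, quasi-likelihood, no replicate block) over all libraries, with 19 contrasts tested two-sided and Benjamini-Hochberg adjustment over 15365 genes. The common biological coefficient of variation was 0.333. CPM use TMM-scaled library sizes, and log2 CPM a prior count of 2. The edgeR test gives no standard error. It was taken as the absolute log2 fold change divided by the square root of the test's F statistic. The 95% intervals were built from it and are approximate. Levels per kilobase use merged exons of GENCODE M21 (GRCm38), whose symbols matched 97.5% of the table. Promoters came from RefSeq on GRCm38.p6, read without a genome sequence.

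The genes named were the 7 members, the 2 most correlated genes of each (mean of at least 5 CPM, predicted genes left out), all 10 network genes and up to 4 called genes of each other list. Members and the 7 lists were chosen with earlier results of these data known. Alternatives were DESeq2 1.42.0, other scalings and filters, a replicate block, a WT replicate series term, gene span offsets, thinning, a robust prior and leaving out each library or the pair with stromal transcripts. The procedure was tested on simulated data, drawn independently for each library. The simulation held no deviation shared between libraries, so it does not give the error rate where libraries deviate together. Over the 6 pairs of WT groups, same-numbered libraries deviated together (r = 0.236 to 0.744), but over the 6 mutant pairs 1 had r above 0.1, so numbers were not taken as pairs.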

Additional observations from a re-analysis of the deposited data

How the results depend on the processing

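No result changed direction while called, and no scaling moved the median of all genes by over 0.1 on the log2 scale. Myc at days 2 and 7, averaged over the genotypes, was called under all 29 alternatives, and at day 1 under 15. The number of members called changed in these cases, and the cause was not tested (the edgeR count stands in brackets at its first mention). DESeq2 called 2 in WT at day 2 (1 in the edgeR fit), 1 and 3 in the mutant at days 1 and 7 (0 and 2), 2 and 4 on average at days 1 and 2 (1 and 2), and 1 from day 2 to day 7 (0). With only the compared groups, the counts were 0 and 1 in WT at days 2 and 7 (1 and 2), 1, 2 and 4 in the mutant at days 1, 2 and 7 (0, 1 and 2) and 0 on average at day 1 (1). With the WT replicate series term they were 2 in WT and 2 in the mutant at day 2, 3 in the mutant at day 7 and 4 on average at day 2. Between genotypes that term set the mutant against the fitted level of WT replicate 1. It gave 1 between genotypes at day 1 (0) and 1 on average of days (0). The stricter filter gave 2 in WT at day 2, and gene span offsets 2 in WT, 0 in the mutant and 3 on average at day 2, where the robust prior also gave 0 in the mutant. Upper quartile scaling gave 3 in the mutant at day 7. Without the stromal pair, 2 were called in WT at day 2, 3 in the mutant at day 7, 3 on average at day 7 (4) and 1 between the genotypes on average. Leaving out each library gave 0 to 2 in WT at days 2 and 7, 0 to 1 in the mutant at day 2, 0 to 3 at day 7, 0 to 1, 1 to 3 and 2 to 4 on average at days 1, 2 and 7, and 0 to 1 between genotypes on average. The replicate block called 3 members in the mutant at day 7 (2 without it) and 3 on average at day 2 (2), adding Mycn each time (adjusted p = 0.0254 and 0.0326), and changed no other count. Members' depth was 41 counts or more in every library.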
